A study of Mus musculus with 4 samples.

Results

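The genes described are 9 members of the oxidative stress defence governed by the transcription factor Nrf2: Slc7a11, Gclm, Gclc, Nqo1, Srxn1, Txnrd1, Prdx1, Nfe2l2 and Gsr. They were taken by name from the 32285 genes of the count matrices, and all 9 were present. The assay was CITE-seq, which counts a cell's RNA together with surface proteins bound by barcoded antibodies. Every library came from the ankle synovium of bone marrow chimeras, in which CD45.1 B6 marrow was given to CD45.2 B6 hosts whose ankles were shielded from irradiation. The sort kept live cells with CD45 and CD11b and removed those with Ly6C, CD64, CD177, MHC class II, Ly6G or SiglecF. Arthritis was induced by transfer of K/BxN serum, with 1 library for each stage. Baseline was taken on day 0 with no treatment, peak on day 7, plateau on day 14 and resolution on day 56 after retro-orbital serum. The titles of the 3 arthritis libraries carry the tag "Clo-lip", which no label explains. Its effect and that of arthritis cannot be told apart. The number of mice behind each library is not stated in the labels. Members were described by library and by CD45 variant, which was used to separate donor (CD45.1) from host (CD45.2) cells. Because the ankle was shielded, host cells can include blood cells from the spared marrow as well as cells already in the tissue. A barcode was called CD45.1 where the log2 ratio of the CD45.1 to the CD45.2 antibody UMIs, each with 1 added, was at least 1, and CD45.2 where it was at most -1.

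Nfe2l2 encodes Nrf2, which Keap1 holds in the cytoplasm and marks for degradation until oxidants or electrophiles modify Keap1. Freed Nrf2 pairs with small Maf proteins on antioxidant response elements, while Bach1 competes for the same elements. Among its targets, Slc7a11 encodes xCT, the light chain of the transporter that brings in cystine in exchange for glutamate. Gclc and Gclm are the catalytic and modifier subunits of glutamate-cysteine ligase, which makes the first step of glutathione synthesis, and Gsr returns oxidized glutathione to its reduced form. Prdx1 is a peroxiredoxin that removes hydrogen peroxide, Srxn1 repairs overoxidized peroxiredoxins, Txnrd1 keeps thioredoxin reduced, and Nqo1 reduces quinones. Slc7a11 is also a target of Atf4, the factor of the amino acid response. In myeloid cells, Nrf2 targets are known to respond to inflammatory stimuli and to the oxidants that phagocytes make.

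The stretches of DNA before the members' start sites show what motifs these genes carry. RefSeq promoter windows (GRCm38.p6, the build also called mm10) were found for 7 of the 9 members, 9 windows in all because Txnrd1 has 3. Gclc and Gsr were not matched. The 250 bases before the start are printed 5′ to 3′ on the gene's strand for Slc7a11 and for 3 members that held a match, so that the matches can be seen in their surroundings. Capitals mark matches on either strand to TGACNNNGC (an antioxidant response element core), TGANTCA (an element of AP-1 and of Maf partners) or TGATGNAA (an Atf4 composite element). The windows are chr3:50443614-50443863 on the minus strand for Slc7a11, chr3:122245307-122245556 on the plus strand for Gclm, chr2:152105274-152105523 on the plus strand for Srxn1 and chr4:116685349-116685598 on the plus strand for Prdx1.
Slc7a11: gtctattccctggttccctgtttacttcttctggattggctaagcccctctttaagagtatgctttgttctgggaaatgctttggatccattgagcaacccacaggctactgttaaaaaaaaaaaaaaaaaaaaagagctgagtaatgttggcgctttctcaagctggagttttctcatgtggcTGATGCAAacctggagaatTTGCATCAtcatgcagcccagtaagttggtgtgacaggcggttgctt
Gclm: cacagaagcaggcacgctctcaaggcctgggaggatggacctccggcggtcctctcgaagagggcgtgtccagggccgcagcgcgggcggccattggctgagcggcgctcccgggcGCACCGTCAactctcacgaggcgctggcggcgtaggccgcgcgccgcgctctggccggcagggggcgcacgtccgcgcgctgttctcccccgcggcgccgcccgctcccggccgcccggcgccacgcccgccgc
Srxn1: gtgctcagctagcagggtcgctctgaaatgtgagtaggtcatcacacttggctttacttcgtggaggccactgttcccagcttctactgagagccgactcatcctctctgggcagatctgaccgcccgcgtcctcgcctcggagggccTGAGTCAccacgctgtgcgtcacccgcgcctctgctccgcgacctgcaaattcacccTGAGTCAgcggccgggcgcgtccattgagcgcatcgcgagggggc
Prdx1: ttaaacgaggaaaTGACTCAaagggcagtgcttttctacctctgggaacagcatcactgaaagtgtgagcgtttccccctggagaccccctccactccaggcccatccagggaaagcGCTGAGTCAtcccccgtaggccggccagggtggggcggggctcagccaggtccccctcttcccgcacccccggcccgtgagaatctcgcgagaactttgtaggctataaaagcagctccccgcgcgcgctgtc
The Slc7a11 window held 2 matches to TGATGNAA, 66 to 59 and 47 to 40 bases before the start, and none to the other motifs. Its RefSeq start lies inside the span of the gene, chr3:50364936-50499087. Gclm held 1 match to TGACNNNGC, 134 to 126 bases before the start. Srxn1 held 2 matches to TGANTCA, 102 to 96 and 45 to 39 bases before the start. Prdx1 held 1 match to TGACNNNGC at 133 to 125 bases and 2 to TGANTCA, of which the one at 131 to 125 bases lies inside it. Nfe2l2 held 1 match to TGACNNNGC and so did 1 of the 3 Txnrd1 windows, while the Nqo1 window held none of the 3 motifs. Of all 32851 windows of this length, 10.2% held TGACNNNGC, 6.75% TGANTCA and 3.45% TGATGNAA. These matches describe letters in a window and are not binding sites.

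Barcodes with 300 or more genes and no more than 10% of UMIs from mitochondrial genes were kept, 1071 at baseline, 5941 at peak, 2828 at plateau and 4611 at resolution, with 11957871 to 58705149 gene UMIs per library. CD45.1 barcodes numbered 808, 5576, 2402 and 3249 in that order, and CD45.2 barcodes 190, 219, 239 and 730. Between 1 and 10 barcode sequences were shared by any pair of libraries. The sorted phenotype was checked on RNA: 75.2% to 89.6% of barcodes held a UMI of Ptprc, which encodes CD45, and 63.2% to 80.9% one of Itgam, which encodes CD11b. Ly6g was at most 2.24%, but RNA of other proteins used to exclude cells was present, with Fcgr1 (CD64) in 7.70% to 65.8% of barcodes, H2-Ab1 in 34.8% to 53.9%, Ly6c2 in 14.3% to 61.6% and Cd177 in 4.45% to 35.2%. Neutrophil marker genes summed to 24291 CPM in CD45.1 and 15660.1 CPM in CD45.2 sums at baseline and to at most 1249 CPM in any other. CPM (counts per 1e6) are UMIs of a gene scaled to the gene UMIs of the summed barcodes, and intervals in parentheses are exact 95% Poisson intervals unless stated, which cover counting error only. In such sums, fewer cells of a type and less RNA per cell cannot be told apart.

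Slc7a11, the cystine importer, was high in the donor cells of the first 3 stages and low in host cells of every stage. In CD45.1 sums it stood at 111 (104–117) at baseline, 125 (122–129) at peak, 141 (136–146) at plateau and 28.1 (25.8–30.5) at resolution CPM. In CD45.2 sums it stood at 14.8 (9.75–21.5) at baseline, 17.6 (13.4–22.6) at peak, 13.1 (9.52–17.5) at plateau and 10.1 (7.37–13.4) at resolution CPM, from 27, 61, 45 and 46 UMIs. The lowest CD45.1 value, at resolution, lay above the highest CD45.2 value, at peak, so the variants did not overlap. Within a library, the ratio of CD45.1 to CD45.2 was 7.47 (5.10–11.4) at baseline, 7.14 (5.55–9.34) at peak, 10.8 (8.06–14.8) at plateau and 2.79 (2.06–3.85) at resolution. The interval at resolution lay below those of the other 3 libraries. Barcodes with a Slc7a11 UMI made up 31.6, 28.9, 27.8 and 7.42% of CD45.1 and 4.21, 6.85, 4.18 and 1.64% of CD45.2 barcodes from baseline to resolution, at median depths of 4973 to 8232 and 5541 to 8565 UMIs. After each barcode was thinned to 2000 UMIs the shares were 12.9, 14.7, 17.9 and 3.64% and 1.14, 3.11, 2.19 and 1.70%. For comparison, 0.472% of the 424 barcodes of a resident macrophage-like cluster held a Slc7a11 UMI at a median of 6671 UMIs, whereas 10.2% of 59 NK cell-like barcodes did at a median of 5259 UMIs. How much of these shares is free RNA or mixed barcodes was not tested.

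**Figure D1:**
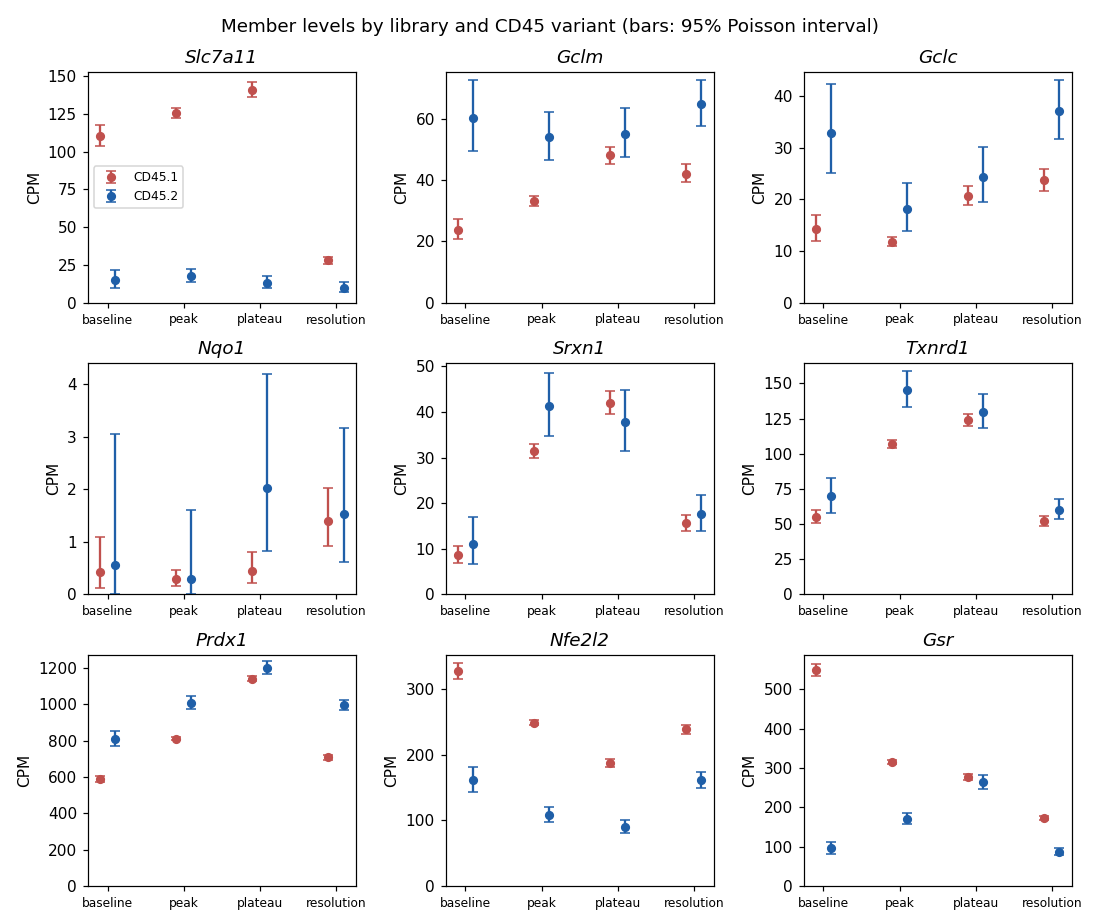
Level of each of the 9 members in CPM (linear axis, 1 panel a gene) in each library from baseline to resolution, with CD45.1 sums in red, CD45.2 sums in blue and exact 95% Poisson intervals as bars. Slc7a11 and Nfe2l2 have every red point above every blue point, and Gclm has every blue point above every red point.

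The 2 ligase subunits had higher values in host than in donor sums of every library, the reverse of the transporter, but neither passed the test given further on. Gclm, the modifier subunit, measured 23.8 at baseline, 33.2 at peak, 48.0 at plateau and 42.1 at resolution CPM in CD45.1 sums and 60.3, 53.9, 55.1 and 64.8 CPM in CD45.2 sums. The CD45.2 value was the higher one in all 4 libraries, and its lowest value, at peak, lay above the highest CD45.1 value, at plateau. The ratio of CD45.2 to CD45.1 was 2.53 (1.99–3.19) at baseline, 1.62 (1.39–1.89) at peak, 1.15 (0.979–1.34) at plateau and 1.54 (1.34–1.76) at resolution. Gclc, the catalytic subunit, measured 14.3, 11.8, 20.7 and 23.65 CPM in CD45.1 and 32.9, 18.2, 24.4 and 37.0 CPM in CD45.2 sums from baseline to resolution. It too was higher in CD45.2 in each library, with ratios of 2.30 (1.67–3.15) at baseline, 1.54 (1.17–2.00) at peak, 1.18 (0.923–1.48) at plateau and 1.56 (1.30–1.87) at resolution, but the ranges of the variants overlapped. For both subunits the interval at plateau includes 1. Gsr, the glutathione reductase, measured 548 at baseline, 315 at peak, 277 at plateau and 173 at resolution CPM in CD45.1 sums, lower at each later stage. In CD45.2 sums it measured 95.9 at baseline, 170.0 at peak, 263 at plateau and 86.1 at resolution CPM, so the host value was highest at plateau and the ranges overlapped. The ratio of CD45.1 to CD45.2 was 5.72 (4.92–6.69) at baseline, 1.85 (1.71–2.01) at peak, 1.05 (0.981–1.13) at plateau and 2.01 (1.81–2.23) at resolution, with an interval that includes 1 at plateau.

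Srxn1, Txnrd1 and Prdx1 stood higher at peak and plateau than at baseline in both variants. Srxn1, which repairs peroxiredoxins, measured 8.58 at baseline, 31.3 at peak, 42.0 at plateau and 15.5 at resolution CPM in CD45.1 and 11.0, 41.2, 37.7 and 17.5 CPM in CD45.2 sums. Both variants were low at baseline and resolution and high at peak and plateau. Txnrd1, the thioredoxin reductase, measured 55.0, 107, 124 and 52.1 CPM in CD45.1 and 69.6, 146, 129.9 and 60.2 CPM in CD45.2 sums, in the same arrangement. Prdx1, the peroxiredoxin, measured 588, 811, 1141 and 708 CPM in CD45.1 and 809, 1009.6, 1202 and 995 CPM in CD45.2 sums, lowest at baseline and highest at plateau in both. All 3 had overlapping variants. By CPM, Txnrd1 and Prdx1 were higher in CD45.2 in 4 of 4 libraries and Srxn1 in 3 of 4. By share of barcodes with a UMI, Srxn1 was higher there in 4 of 4, and Txnrd1 and Prdx1 were not.

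Nqo1 was close to the limit of detection. It had 4, 15, 11 and 27 UMIs in the CD45.1 sums and 1, 1, 7 and 7 in the CD45.2 sums from baseline to resolution. Its CPM lay between 0.283 (CD45.1 at peak) and 2.03 (CD45.2 at plateau), and the interval of the ratio between variants includes 1 at baseline, peak and resolution. Nfe2l2, the gene of Nrf2 itself, measured 328 at baseline, 249 at peak, 187 at plateau and 239 at resolution CPM in CD45.1 and 162, 109, 90.5 and 161 CPM in CD45.2 sums. Plateau was lowest in both variants, baseline was highest, with resolution within counting error of it in CD45.2, and every CD45.1 value lay above every CD45.2 value. The ratio of CD45.1 to CD45.2 was 2.03 (1.80–2.29) at baseline, 2.29 (2.07–2.55) at peak, 2.07 (1.85–2.33) at plateau and 1.48 (1.37–1.61) at resolution. In all, 3 of the 9 members had sums of the variants that did not overlap, 2 with CD45.1 above and 1 below. Of 14081 genes with enough UMIs, 14.7% did not overlap, 4.78% with CD45.1 above and 9.92% below.

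The question of whether donor and host cells differ was tested over the 8 sums with edgeR's quasi-likelihood test, with the library as a block. The 4 libraries are of different stages and their mice are not described, so the p-values measure the spread of the difference between these 4 libraries. Slc7a11 was 7.70-fold higher in CD45.1 (log2 difference 2.94, SE 0.328, adjusted p = 0.00314), higher in 4 of 4 libraries. Nfe2l2 was 2.34-fold higher (log2 difference 1.23, SE 0.180, adjusted p = 0.00588), also in 4 of 4. Gsr was higher in 4 of 4 libraries with a fitted 2.58-fold but missed the threshold of 0.05 (log2 difference 1.37, SE 0.401, adjusted p = 0.0518 in edgeR). It passed with DESeq2 (adjusted p = 0.00481), in edgeR with no low-count filter (adjusted p = 0.0148) and in edgeR without the plateau library (3.38-fold, adjusted p = 0.0309). Thus 2 of 9 members were called by edgeR, both higher in CD45.1, where 20.7% of the 12556 genes tested were called, 11.1% higher and 9.59% lower. Without the baseline, peak or plateau library edgeR called 1525, 1047 and 1636 genes in place of 2597, with Slc7a11 and Nfe2l2 among them each time.

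The other 6 members did not pass the edgeR threshold. Gclm had log2 difference -0.43, SE 0.175, adjusted p = 0.119 in edgeR, and Gclc had log2 difference -0.40, SE 0.171, adjusted p = 0.138. With total UMIs in place of TMM factors as the scale, the median log2 difference of all genes was -0.26 in place of 0.0047. There edgeR called Gclm (-0.70, adjusted p = 0.0483) and Gclc (-0.67, adjusted p = 0.0495) lower in CD45.1. On that scale 832 genes were higher and 1798 lower, against 1393 and 1204 with TMM. The fitted log2 differences of Srxn1 (0.086), Txnrd1 (0.0049) and Prdx1 (-0.065) were smaller than their standard errors of 0.144, 0.129 and 0.160, and on total UMIs those of Srxn1 and Txnrd1 turned to -0.18 and -0.27. Nqo1, with its few UMIs, had a difference of -0.59 with an SE of 0.591.

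**Figure D2:**
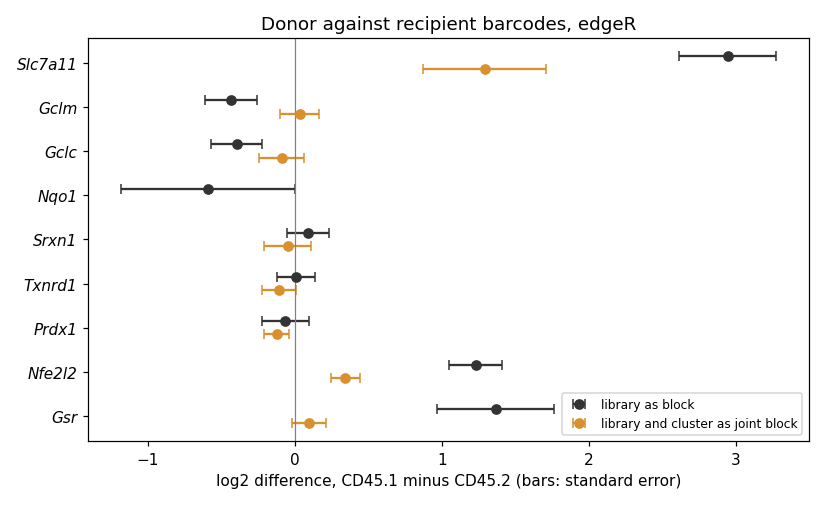
Fitted log2 difference between CD45.1 and CD45.2 (positive: higher in CD45.1) for each member with its standard error as bars, from edgeR over 8 sums with library as block (black) and over sums within clusters with library and cluster as joint block (orange, without Nqo1, which had too few UMIs). Slc7a11 moves from 2.94 to 1.29 and Nfe2l2 from 1.23 to 0.34 between the fits, and Gsr from 1.37 to 0.10.

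The cells of the 2 variants were of different kinds. Summed markers of resident macrophages were 16462, 2925, 3143 and 10520.3 CPM in CD45.2 and 706, 844, 1233 and 3244 CPM in CD45.1 sums from baseline to resolution. Of these 11 markers none was at 0 in any CD45.2 sum, and 1 was at 0 in the CD45.1 plateau sum. The 8 classical monocyte markers summed to 5597, 5779.9, 2113 and 1562 CPM in CD45.1 and 1669, 1000.4, 713 and 914 CPM in CD45.2 sums, and the 10 nonclassical monocyte markers to 1944, 369.6, 289 and 1127 and 505, 161, 103 and 465 CPM, with none of either list at 0. Summed fibroblast markers were 3604, 4963, 10076 and 2756 CPM in CD45.2 and 761, 1481, 2285 and 954 CPM in CD45.1 sums. The fibroblast-like clusters led by Myoc and Prg4 held 143 and 51 CD45.1 barcodes and 76 and 39 CD45.2 barcodes. Whether the antibody ratio marks donor or host origin in such cells was not tested. The part of these cell types in the differences between variants was not tested beyond the following. The variants were therefore also compared within clusters, in the 11 pairs of library and cluster that held at least 20 cells of both variants. There edgeR called 263 of 9051 genes (2.91%) and neither Slc7a11 (log2 difference 1.29, SE 0.417, adjusted p = 0.111) nor Nfe2l2 (log2 difference 0.34, SE 0.0975, adjusted p = 0.0559). Pairs of the same library share its preparation and are not replicates. The p-values of this fit measure the spread between pairs, not between libraries or mice. Slc7a11 was 2.45-fold higher in the fit, higher in CD45.1 in 7 of the 11 pairs and lower in 2, with 30 CD45.2 UMIs in all. Of these 30, 19 came from the Rnase2a-led cluster at resolution, where CD45.2 was higher (32.7 against 24.4 CPM). Among the 7 were fibroblast-like pairs, Prg4-led at plateau (4 against 1 UMIs) and Myoc-led at resolution (5 against 0). The Tpm1-led pair at plateau and the Aqp1-led pair at resolution, also among the 7, held 5 and 6 CD45.1 UMIs. Nfe2l2 was higher in 9 of 11, the fibroblast-like pairs included. Among these 9 were near-equal values at resolution, 156.75 against 156.70 CPM in the Vsig4-led and 407 against 404 CPM in the Skint3-led cluster. Gclm and Gsr were each higher in CD45.1 in 6 of the 11 pairs and lower in 5. These pairs do not include the Cxcl3-led cluster described next, which held most Slc7a11 UMIs at peak and plateau, nor the Skint3-led cluster at baseline, because under 20 of their cells there were CD45.2. The Skint3-led cluster at resolution is included, with 239 Slc7a11 UMIs in CD45.1 and 3 in CD45.2.

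A few host barcodes carried most of the host Slc7a11. Of 179 Slc7a11 UMIs in all 1378 CD45.2 barcodes, 74 (41.3%) came from 9 barcodes of the Cxcl3-led inflammatory macrophage-like cluster and 21 from 6 barcodes of a Camp-led cluster. Whether these barcodes hold cells of both variants was not tested one by one. Without barcodes that carry at least 10 UMIs of both CD45 antibodies, Slc7a11 was 10.3-fold higher in CD45.1 in edgeR (adjusted p = 0.0152).

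Slc7a11 was concentrated in 1 kind of cell at peak and plateau and in other kinds at baseline and resolution. Clustering on RNA gave 27 clusters, 23 with at least 50 cells. Slc7a11 was among the 2000 genes used for clustering and no other member was, so its levels by cluster are a description. The cluster led by Cxcl3 and Cxcl2, inflammatory macrophage-like by its markers, held 1589 cells, none from baseline, 1022 from peak, 565 from plateau and 2 from resolution. Slc7a11 stood there at 499 (487–511) CPM, with a UMI in 67.3% of cells, at 459 (445–473) CPM at peak and 570.5 (549–593) at plateau. It held 61.9% of the Slc7a11 UMIs of the peak library in 17.2% of its barcodes, and 72.3% of those at plateau in 19.98%. Of its cells 1572 were CD45.1 and 9 CD45.2. With the 9 members left out of the clustering genes, an alternative added after seeing the data, the matching cluster had 1207 cells, 1177 of them shared, and Slc7a11 at 603 CPM.

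**Figure D3:**
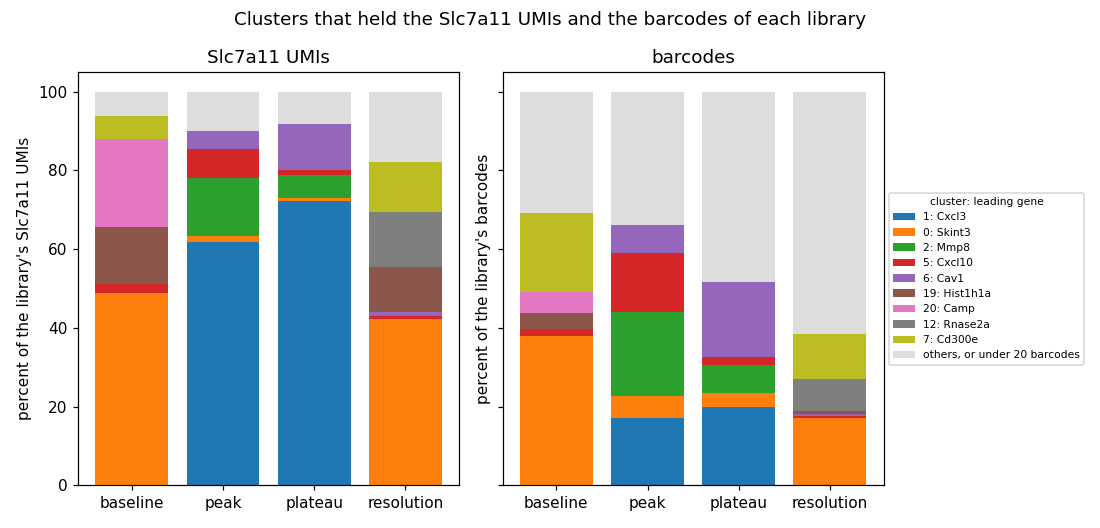
Percent of each library's Slc7a11 UMIs (one stacked bar a library) and percent of its barcodes (the bar beside it) by RNA cluster. The Cxcl3-led cluster makes up most of the Slc7a11 UMIs at peak and plateau, and the Skint3-led cluster holds the largest share at baseline and at resolution.

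At baseline 48.8% of Slc7a11 UMIs came from the Skint3-led cluster, nonclassical monocyte-like by its markers, in 37.8% of barcodes. A further 22.4% came from the cluster led by Camp and Ngp, genes of neutrophil granules, in 5.23% of barcodes. That cluster had no single best match among the marker lists and stayed unnamed. At resolution the Skint3-led cluster again held the largest share, 42.2% of Slc7a11 UMIs in 17.1% of barcodes. Within it Slc7a11 measured 126 (116–136) CPM at baseline, 39.2 (31.6–48.0) at peak, 49.1 (32.6–71.0) at plateau and 74.9 (66.3–84.2) at resolution. This order, highest at baseline, differs from that of the whole libraries, where peak and plateau were highest. No test between stages is possible, since each stage is 1 library.

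By level over all libraries, the Cxcl3-led cluster was followed by the cycling cell-like cluster led by Hist1h1a (151 (135–169) CPM), an unnamed cluster of shallow barcodes led by Gm42418 (151 (124–183)), the Camp-led cluster (139.8 (124–157)) and the Spp1 macrophage-like cluster (129 (120.1–139)). The intervals of these 4 overlap, as do those of the next 2, the Skint3-led (86.9) and the classical monocyte-like cluster (84.4). At the other end stood the unnamed cluster led by Aqp1 and Fxyd2, genes of synovial lining macrophages, at 2.92 (1.87–4.34) CPM. Of 11 resident macrophage markers 8 were raised in it. The Vsig4-led resident macrophage-like cluster stood at 1.23 (0.336–3.16) CPM from 4 UMIs. A second resident macrophage-like cluster had 0 Slc7a11 UMIs in 120 cells, which allows up to 4.42 CPM. Of the clusters under 50 cells, an unnamed one of 33 cells, led by Cstdc4, Retnlg and Cxcr2, had 1256 (1071–1464) CPM from 163 UMIs, with 28 of its cells from peak.

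The other members were arranged differently over the clusters of 50 or more cells, to which the following ranks refer. Gclm was highest in the Aqp1-led (70.0 CPM), Spp1 macrophage-like (68.9) and Vsig4-led (64.8) clusters and low in both nonclassical monocyte-like clusters (16.4 and 14.8). Gclc was likewise high in the Vsig4-led (38.6), Myoc-led fibroblast-like (37.0) and Aqp1-led (32.8) clusters and low in the classical monocyte-like (8.29) and interferon-responding cell-like (7.14) clusters. The Vsig4-led and Aqp1-led clusters, with little Slc7a11, were thus among those with the most of both ligase subunits, but the Prg4-led fibroblast-like cluster, with Slc7a11 at 2.14 CPM, had Gclm at 33.6 and Gclc at 18.0 CPM. The Spp1 macrophage-like cluster was high in all of them, with Slc7a11 at 129, Gclm at 68.9 and Gclc at 28.3 CPM. Gsr was arranged in reverse to the ligase subunits, with 676 CPM in the Camp-led and 669 and 593 in the nonclassical monocyte-like clusters, against 40.1 in the Vsig4-led cluster. In the Cxcl3-led cluster, where Slc7a11 was highest among these, Gsr measured 183 CPM and Gclm 33.6.

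Among clusters of 50 or more cells, Txnrd1 was highest in the osteoclast-like cluster with the deeper barcodes (151 (145–157) CPM) and in the cycling cell-like cluster led by Hmmr (137 (126–149)), followed by the Cxcl3-led cluster (132 (126–139)), whose interval overlaps the second of these. Srxn1 had 63.7 (59.6–68.1) CPM in the Cxcl3-led cluster, but the highest value, 400.3 (332–479) CPM from 120 UMIs, was in the 63 basophil-like cells, all from peak. Prdx1 was highest in the Spp1 macrophage-like cluster (1748 CPM) and lowest in the basophil-like (244) and Camp-led (249) clusters. Nfe2l2 was highest among these clusters in the nonclassical monocyte-like ones (499 and 392 CPM) and lowest in the deeper osteoclast-like cluster (55.5). Nqo1 reached at most 5.19 CPM in a cluster of 50 or more cells, the Prg4-led fibroblast-like one, from 17 UMIs.

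**Figure D4:**
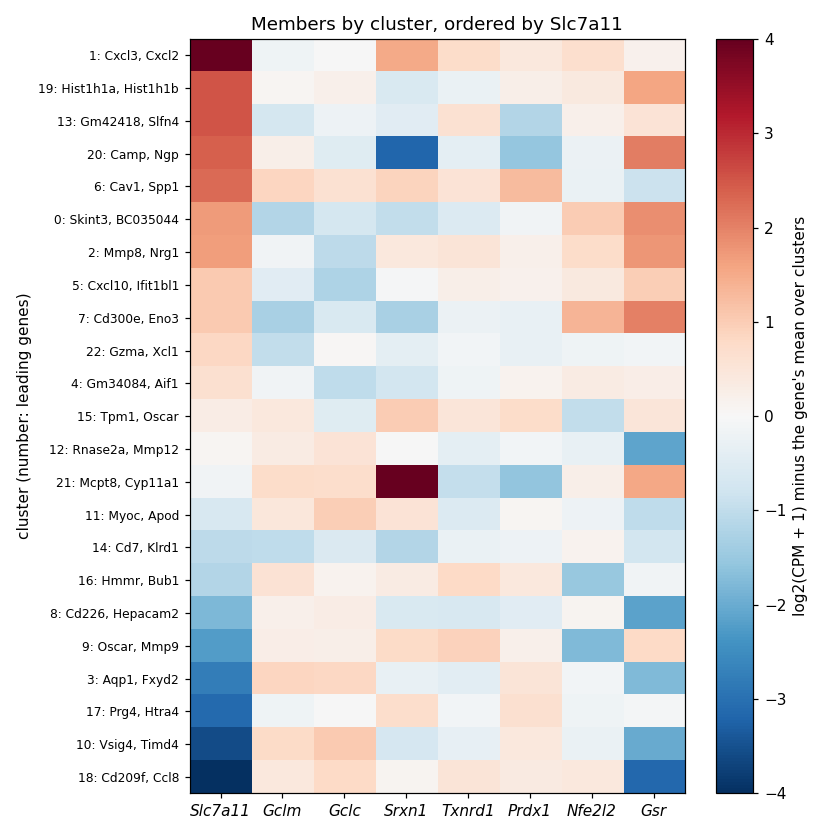
Log2(CPM + 1) minus the gene's mean over clusters (colour, limited to 4 either way) for 8 members without Nqo1 in the 23 clusters of at least 50 cells, ordered by Slc7a11. Gsr and Nfe2l2 tend to be high at the Slc7a11-rich end, and Gclm and Gclc at the other.

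Over the 39 sums of library and cluster with at least 50 cells, Pearson's r with Slc7a11 on log2(CPM + 1) was 0.63 for Gsr, 0.44 for Nfe2l2, 0.25 for Txnrd1, 0.11 for Srxn1, -0.055 for Prdx1, -0.17 for Nqo1, -0.20 for Gclm and -0.34 for Gclc. Sums of 1 library share its preparation and depth, so these values are a description. The 5 genes most like Slc7a11 among 5432 with a mean of at least 20 CPM were Cd300lf (0.87), F10 (0.85), Trem1 (0.84), Gpr35 (0.83) and Noct (0.83). Trem1 is a receptor that amplifies inflammation in myeloid cells, Cd300lf an inhibitory myeloid receptor, F10 coagulation factor X and Noct a NADP(H) phosphatase. By library, from baseline to resolution, Cd300lf measured 19.4, 48.3, 24.7 and 6.09 CPM, F10 89.1, 203, 101 and 53.6, Trem1 72.4, 131, 67.8 and 32.6, Gpr35 61.7, 88.5, 51.6 and 27.1 and Noct 35.3, 49.8, 47.4 and 16.3. All 5 were highest at peak and lowest at resolution, whereas Slc7a11 stood at 99.5, 115, 119.7 and 24.3 CPM, about level from peak to plateau.

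The stages were compared as ratios of CPM over all kept barcodes, with 2-fold as the size that counts. Each stage is 1 library, so there is no test, and the comparisons share libraries. From baseline to peak, 1 of 8 members with enough UMIs passed 2-fold, Srxn1, 3.46-fold higher (2.86–4.25) at peak. With equal weight to each of the 6 clusters present in both libraries its log2 ratio was 0.85 in place of 1.79, under 2-fold. Of all 13084 genes 21.2% passed 2-fold, 8.52% higher and 12.6% lower. Txnrd1 was 1.86-fold higher (1.72–2.02) and Prdx1 1.35-fold higher (1.31–1.38), while Gsr was 1.59-fold lower (1.54–1.64). Slc7a11 was 1.16-fold higher (1.09–1.23). From peak to plateau only Nqo1 of 9 passed, 2.08-fold higher (1.07–4.05) on 20 and 21 UMIs, where 20.1% of all genes passed, 15.1% higher and 5.07% lower. Gclc was 1.69-fold higher (1.51–1.88) and Prdx1 1.39-fold higher (1.37–1.41), against a median of all genes of 0.30 on the log2 scale, and Nfe2l2 was 1.36-fold lower (1.31–1.40).

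Slc7a11 was lowest at resolution. Against plateau it was 4.93-fold lower (4.53–5.37), Srxn1 2.50-fold lower (2.24–2.79) and Txnrd1 2.29-fold lower (2.16–2.44), 3 of 9 members lower, while Nqo1 was 2.16-fold higher (1.26–3.88). Of all 13291 genes 23.8% passed 2-fold, 13.4% higher and 10.5% lower. Gsr was 1.71-fold lower (1.65–1.78) and Prdx1 1.51-fold lower (1.49–1.54), and Gclm did not differ beyond counting error (1.03-fold lower (0.956–1.11)). In CD45.1 barcodes alone the log2 ratio of Slc7a11 was -2.33 and in CD45.2 barcodes alone -0.37. With the mean over the 10 clusters present in both libraries it was -1.52, against -2.30 for the whole libraries, and those of Srxn1 (-0.61) and Txnrd1 (-0.87) came under 2-fold. Against baseline, resolution had 17.4% of all genes past 2-fold, 11.8% higher and 5.61% lower. Slc7a11 was 4.10-fold lower (3.72–4.51) and Gsr 3.01-fold lower (2.89–3.13), and Nqo1 was 3.41-fold higher (1.47–12.01) on 42 against 5 UMIs. With equal weight to each of the 9 clusters present in both libraries none of these 3 passed 2-fold, the log2 ratio being -0.89 for Slc7a11, with 3 clusters higher, -0.72 for Gsr and 0.49 for Nqo1. Srxn1, Txnrd1 and Prdx1 were within 2-fold of baseline, at 1.78-fold higher (1.44–2.22), 1.08-fold lower (0.989–1.19) and 1.24-fold higher (1.205–1.27).

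Within clusters, the Prdx1 ratios had 1 direction at each of 3 steps. It was higher at peak than at baseline in 6 of 6 clusters with at least 20 cells in both libraries, higher at plateau than at peak in 15 of 15 and lower at resolution than at plateau in 10 of 10. Of all genes tested, 2.07%, 1.37% and 1.37% did so at these steps, and of genes with at least 500 CPM, as Prdx1 has, 8.19%, 5.63% and 9.52%. Txnrd1 was lower at resolution than at plateau in 10 of 10 clusters and lower than at baseline in 9 of 9, where 1.37% and 1.12% of all genes were. The share among genes at the level of Txnrd1 was not computed. Over the whole libraries Txnrd1 was 1.08-fold lower (0.989–1.19) at resolution than at baseline. Clusters of a library share its preparation and are not replicates. Slc7a11 was higher at peak than at baseline in 2 of 6 clusters, and the mean over clusters was -0.13 on the log2 scale against 0.21 for the whole libraries. With edgeR's TMM totals, the plateau-to-peak log2 ratios of Slc7a11 and Txnrd1 turned from 0.052 and 0.18 to -0.20 and -0.074.

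The rest of the pathway was described through lists of 86 genes in all, which include the members. Over all genes tested edgeR called 11.1% higher and 9.59% lower in CD45.1, the share against which each list's count stands. Counts such as 2 of 12, 3 of 14 or 4 of 21 lie above the share called higher by few genes, and no list was tested as a set. Of 10 regulators, edgeR called 3 higher and 1 lower in CD45.1, with a median log2 difference of 0.23. Besides Nfe2l2 these were Bach1, the competitor of Nrf2 (1.01, adjusted p = 0.013 in edgeR), Mafk, a small Maf partner (0.79, adjusted p = 0.0442), and, lower, Nfe2l1, a relative of Nrf2 (-0.72, adjusted p = 0.0338). Keap1 had 0.14, adjusted p = 0.512 in edgeR. Nfe2l1 was no longer called without any 1 of the 4 libraries, and Mafk not without baseline, peak or plateau. Of 15 tested genes of glutathione synthesis and use, 3 were higher and 1 lower, median 0.28. Slc7a11 was joined by the microsomal transferase Mgst1 (2.01, adjusted p = 0.00732 in edgeR) and the glutaredoxin Glrx (1.27, adjusted p = 0.0106), and the exporter Abcc1 was lower (-0.88, adjusted p = 0.035), a call lost without baseline, peak or resolution. Without plateau 5 were higher, Gsr and Gstp1 being added. Slc3a2, the heavy chain that pairs with xCT, had 0.43, adjusted p = 0.128 in edgeR.

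Of 12 thioredoxin and peroxiredoxin genes, 2 were higher and none lower in CD45.1 in edgeR, median -0.030, namely Prdx5 (1.52, adjusted p = 0.0131) and Prdx6 (1.37, adjusted p = 0.00762). Prdx6 draws on glutathione rather than thioredoxin. Without peak only Prdx6 was called. Of 21 other textbook Nrf2 targets, Nqo1 among them, 4 were higher and 6 lower, median -0.19. The higher ones were the exporter Abcc4 (1.60), the transaldolase Taldo1 (1.34), the dehydrogenase G6pdx (0.88) and the transketolase Tkt (0.86). With 1 library left out, G6pdx passed only without resolution and Tkt only without plateau. The lower ones included malic enzyme Me1 (-2.27), the epoxide hydrolase Ephx1 (-2.25) and the aldo-keto reductase Akr1b8 (-1.98). Without peak 1 was higher (Abcc4) and 2 lower (Me1 and Mt2), and without baseline 2 were higher and 5 lower. None of the 4 superoxide dismutase and catalase genes passed in edgeR, median 0.14, although DESeq2, and edgeR without the resolution library, called Sod3 lower.

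The phagocyte NADPH oxidase, a source of superoxide, stood higher in CD45.1 for 5 of 7 genes in edgeR and lower for none, with a median log2 difference of 1.04. Its catalytic subunit Cybb had 1.77, adjusted p = 0.0053 in edgeR, and Cyba, which pairs with it, 1.06, adjusted p = 0.034. Without peak or without plateau 3 of 7 passed and without baseline 4, with Cybb and Rac2 called each time and Cyba in none of these. The list for Atf4, which also acts on Slc7a11, had 3 of 14 genes higher and 2 lower in edgeR, median 0.097. Cebpb (2.12), Ddit4 (1.15) and Sesn2 (0.84) were higher and Vldlr (-3.07) and Nupr1 (-1.47) lower, while Atf4 itself had 0.25, adjusted p = 0.236. Cebpb and Vldlr passed without each library in turn. Nupr1 did not without plateau or resolution, Ddit4 did only without baseline, and Sesn2 in none of these. With total UMIs as the scale, the medians of the regulators, of the superoxide and peroxide enzymes and of the Atf4 list turned to -0.039, -0.13 and -0.17. Over all genes tested the median was 0.0047 with TMM. Within clusters, with library and cluster as joint block, 3 of 7 oxidase genes, 1 of 18 other targets, 1 of 12 Atf4 genes and none of the regulator, glutathione, thioredoxin and superoxide lists passed in edgeR, where 2.91% of all genes did. Pairs of the same library are not replicates in that fit. The marker sums of resident macrophages and monocytes given above move with these lists too, and their part in them was not tested.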

How the data were processed

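The deposited matrices hold raw UMI counts of each gene and antibody in each barcode. The authors made them with Cell Ranger 6.1.2, per the file headers, on mm10, per the submitters' processing notes. The notes also list Seurat 4.4.0 without naming a step. A cell filter by the authors beyond Cell Ranger's own is not described in the labels. The members and gene lists were chosen with earlier results of these data known.

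Barcodes with at least 300 genes and at most 10% of UMIs from genes named mt- were kept, the first of which removed 19 to 167 barcodes of a library and the second 38 to 382 more. No doublet caller was run. Levels are CPM of summed UMIs with exact 95% Poisson intervals, and shares have exact Clopper-Pearson intervals. Shares were also computed after thinning to 2000 UMIs. The variants were compared over 8 sums with edgeR 4.0.16 (quasi-likelihood, filterByExpr, TMM, library as block, Benjamini-Hochberg over all genes tested, threshold 0.05); the block pairs the sums because both variants come from the same library. DESeq2 1.42.0 was an alternative. On simulated counts of 12556 genes for this comparison, edgeR recovered 56.4% of tested genes changed by 1 and 97.8% of those changed by 2 on the log2 scale, with 7 false calls. The simulation gave every gene the same dispersion, and its 200 changed genes the same change in every library. It therefore checks the code and does not give the error rate in these data. Stage ratios add 0.5 counts and use genes with at least 30 UMIs in the 2 sums. Clusters came from scanpy 1.11.5 and leidenalg 0.10.2 (2000 variable genes, 30 components, 15 neighbours, resolution 0.8, libraries not integrated). A cluster is called "-like" a type where at least 3 of that type's markers, and more than of any other type, were found in at least 10% of its cells at 2 times their share elsewhere. Promoter windows were scanned on both strands.

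All 9 members are named, with the 5 genes most like Slc7a11 and, of each list, up to 3 genes a direction with the largest change. Keap1, Slc3a2, Tkt, Atf4 and, across stages, Hmox1 and Fth1 were named outside that rule after their values were seen. Not every gene that this rule selects is reported here.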

Additional observations from a re-analysis of the deposited data

Results flagged for a closer look

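Slc7a11 also appeared in barcodes that belong to neither CD45 variant and enter no comparison of the variants. In the 73 such barcodes at baseline it stood at 163 CPM (137–194, exact 95% Poisson interval, 133 UMIs), against 111 CPM in CD45.1 and 14.8 CPM in CD45.2 barcodes of the same library. Of these UMIs 74 came from 9 barcodes of the Camp-led cluster and 48 from 36 barcodes of the Skint3-led cluster.

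Gsr was noted because its ratios between stages ran in opposite directions in the variants at 2 steps. From baseline to peak the ratio was 1.77 (1.495–2.11) in CD45.2 and 0.575 (0.557–0.593) in CD45.1 barcodes. From peak to plateau it was 1.55 (1.39–1.72) in CD45.2 and 0.879 (0.854–0.904) in CD45.1 barcodes. With 1 library a stage, the difference between these ratios was not tested. The osteoclast-like cluster with the deeper barcodes, where Gsr stood at 211 CPM at peak and 335 at plateau, held 92 CD45.2 barcodes, and summed osteoclast markers in CD45.2 were 339, 19192, 27553 and 930.0 CPM from baseline to resolution. Their part in the Gsr ratios was not tested.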

How the results depend on the processing

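The call of Slc7a11 as higher in CD45.1 held under every alternative fit except the joint block of library and cluster, where its log2 difference was 1.29 (adjusted p = 0.111, edgeR). Without 1 library it lay between 2.72 and 3.35. The comparison of the variants called 2597 genes, and separate fits, each over its own set of genes tested, called 513 with no replicate block, 263 with the joint block and 1047 to 2082 without 1 library (1525 without baseline, 1047 without peak, 1636 without plateau). With no replicate block Nfe2l2 was not called (adjusted p = 0.051, edgeR), nor with the joint block. The signs of small differences turned. Under the joint block Gclm had 0.034, Srxn1 -0.049 and Txnrd1 -0.11. On total UMIs Srxn1 had -0.18 and Txnrd1 -0.27. Txnrd1 also had -0.018 with RLE scaling, -0.0084 with DESeq2, -0.050 with no replicate block, -0.11 with a variant limit of 2 and -0.0029 with limits of 500 genes and 5% mitochondrial UMIs. Prdx1 had 0.0030 with no low-count filter. Without 1 library Srxn1 ranged from -0.00083 to 0.14, Txnrd1 from -0.024 to 0.051 and Prdx1 from -0.11 to 0.0068. The cause of these turns was not tested. By mean CPM per barcode, by share of barcodes and by thinned share, 3 members rather than 5 were lower in CD45.1 in 4 of 4 libraries, and 3 were higher under each. The lower ones were Gclm and Gclc each time, with Srxn1 by mean and by share and Prdx1 by thinned share. Txnrd1 and Nqo1 were lower in 4 of 4 only by CPM of the sums. The share of all genes with 1 direction in 4 of 4 libraries was not computed. Of the stage ratios 9 passed 2-fold, but 3 with equal weight to each cluster, and in CD45.2 alone the Nqo1 log2 ratio of resolution to plateau was -0.41. TMM factors of the whole libraries were 1.000, 0.871, 1.04, 1.11 from baseline to resolution. Slc7a11 in the Cxcl3-led cluster, 499 CPM, was 525 at resolution 1.2, 515 with equal weight to libraries and 603 with the members left out of the clustering genes. At resolution 0.4 the matching cluster of 3310 cells had 140.4, and another cluster had 489. Depth limits Nqo1, with 5 to 42 UMIs a library, and Slc7a11 in CD45.2, with 179. With 1 library a stage, differences between mice cannot be told apart from differences between stages.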

Other observations

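Other textbook Nrf2 targets can be followed across the stages in the whole libraries, as values with no test. From baseline to peak, 6 of 20 tested were at least 2-fold higher and 3 at least 2-fold lower, where 8.52% and 12.6% of all genes were. The metallothionein genes Mt2 (4.22-fold) and Mt1 (2.53-fold) and the malic enzyme gene Me1 (3.64-fold) were among the higher ones and the epoxide hydrolase gene Ephx1 (4.21-fold), Osgin1 (2.15-fold) and Idh1 (2.13-fold) were the lower ones. Hmox1, which encodes the inducible heme oxygenase, measured 62.6 at baseline, 143 at peak, 149 at plateau and 65.6 at resolution CPM. The ferritin heavy chain gene Fth1 measured 6825, 17129.7, 13516 and 9489 CPM and Mt1 192, 486, 525 and 487 CPM in the same order. Hmox1 was thus near its baseline level at resolution while Mt1 was not.

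From peak to plateau 4 of 21 were at least 2-fold higher and none lower, where 15.1% and 5.07% of all genes were, among them Akr1b8 (2.65-fold), Me1 (2.50-fold) and Cbr1 (2.27-fold). From plateau to resolution 2 were higher and 3 lower, where 13.4% and 10.5% of all genes were. Ephx1 was 12.1-fold higher at resolution and measured 16.1 at baseline, 3.83 at peak, 5.61 at plateau and 68.3 at resolution CPM. Outside these targets, the glutathione transferase gene Gstp1 measured 108 at baseline, 14.9 at peak, 54.0 at plateau and 52.1 at resolution CPM and Txnip, an inhibitor of thioredoxin, 149, 120.0, 119 and 309 CPM in the same order. Sod2, the mitochondrial superoxide dismutase gene, measured 132 at baseline, 207 at peak, 314 at plateau and 123 at resolution CPM, in the arrangement of Srxn1 and Txnrd1. Cybb of the NADPH oxidase measured 1087 at baseline, 449 at peak, 234 at plateau and 425 at resolution CPM, highest at baseline and lowest at plateau.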
